A study of Homo sapiens with 5 samples.

Results

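Keratins build the intermediate filaments of epithelial cells. Each filament pairs a type I (acidic) with a type II (basic) keratin, and KRT8 with KRT18 is the first pair of simple, single-layered epithelia such as the colon, where KRT19 and KRT20 are added as type I partners. KRT16 and KRT17 belong to another setting: they are switched on in wounded, inflamed or fast-growing stratified epithelium and in many carcinomas. The 10 genes described here are the rows of the deposited count table for the type II keratins KRT7, KRT8 and KRT80 and the type I keratins KRT15, KRT16, KRT17, KRT18, KRT19, KRT20 and KRT23, chosen by symbol from 25343 gene rows. All 10 had a row and all 10 passed the filter on low counts, as did 13604 genes in all. KRT20 reached the cut in the 3 neg libraries alone, and KRT16 in the 3 neg libraries and 1 of the 2 pos libraries. The filter asked for 2 libraries, so both genes entered the test through neg, where they are high.

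RNA was sequenced from SW620, a human colon carcinoma line, as stranded poly(A) libraries. All 5 libraries, pos and neg alike, carry a tetracycline-inducible short hairpin RNA against MUC1 (tet-MUC1shRNA), and the series title names MUC1-C as a target against stemness. There are 2 libraries called pos (replicates 1 and 3) and 3 called neg (replicates 1, 2 and 3). Cells received doxycycline, which turns such hairpins on, or vehicle, but the labels do not say which name stands for which, so the names pos and neg are kept. No control hairpin was analysed here, so if pos is doxycycline the drug and the loss of MUC1 cannot be told apart. The cultures were triplicates by the labels, which say nothing more of how libraries of a group relate, so p-values measure only the spread between these libraries.

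MUC1, the hairpin's target, had 27 and 13 reads in pos replicates 1 and 3, against 176, 252 and 218 reads in neg replicates 1, 2 and 3 (edgeR log2 fold change -3.07 with an SE of 0.34, adjusted p = 0.0270). The libraries held 12190025 and 13470767 counted reads in pos and 10888704 to 14137678 in neg. The pos pair differed far more than the neg pairs did, with a chi-square per degree of freedom of 163 against 6.37 to 23.8. Pos replicate 3 was rich in short transcripts: set against the neg mean, the median gene stood at 1.19 (log2) among the shortest transcripts (66 to 1738 nt) and at -1.25 among the longest (5683 to 109224 nt). In pos replicate 1 those medians were 0.37 and -0.26. Most keratin transcripts are short, so the main results below are also given for a fit with that trend of level on transcript length removed. EPCAM, an epithelial adhesion protein, was abundant, with 6830 and 5316 reads in pos and 4593 to 5527 in neg. Of 15 listed epithelial markers, which include the members KRT8, KRT18, KRT19 and KRT20, 14 were tested. In edgeR 1 was called higher, 1 lower and 12 neither (adjusted p under 0.05), against 5.06% higher and 4.13% lower over all genes tested. CDX2, the intestinal transcription factor, rose (2.18, SE 0.33) and CDH1 (E-cadherin) fell (-1.68, SE 0.34; edgeR adjusted p = 0.0337 and 0.0434). CDX2 stood at 2.65 with pos replicate 3 alone and at 1.56 with pos replicate 1 alone, and CDH1 did not pass under scaling by library size (edgeR adjusted p = 0.0658).

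Of the 10 keratins 1 rose and 3 fell in pos (adjusted p under 0.05, edgeR quasi-likelihood test with Benjamini-Hochberg adjustment over all 13604 genes). Over all genes tested 9.20% passed, 5.06% higher and 4.13% lower. Among those that passed, the stress keratins KRT16 and KRT17 had the largest falls, KRT80 fell, and KRT23 rose. KRT8, KRT18, KRT19, KRT7, KRT15 and KRT20 did not pass. The ranges of pos and neg normalised counts (CPM) did not overlap for 6 of the 10 keratins, against 56.0% of all genes tested, a share close to that of the keratins. The median log2 fold change was 0.30 over the 10 keratins and -0.05 over all genes tested. With the length trend removed the median was -0.33 against 0.02, and the same 4 keratins passed, where 7.29% of all genes were called higher and 6.65% lower. KRT20 passed there too. KRT16 and KRT20 entered the test through neg, where they are high, and are not counted as support. With 2 pos libraries the calls rest on every neg library: without neg replicate 1, 2 or 3 edgeR called 0 genes, keratins included, while 3033, 2510 and 2607 genes (5, 5 and 4 of the 10 keratins) had an unadjusted p under 0.05. Fits with 1 pos library alone assume that its spread equals that of neg, so their calls are not counted here. KRT23, KRT16, KRT17 and KRT80 kept their direction with either pos library alone, and so did KRT8, KRT18 and KRT20, which did not pass. The calls came from these same pos libraries, so the shared direction is no separate support.

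**Figure D1:**
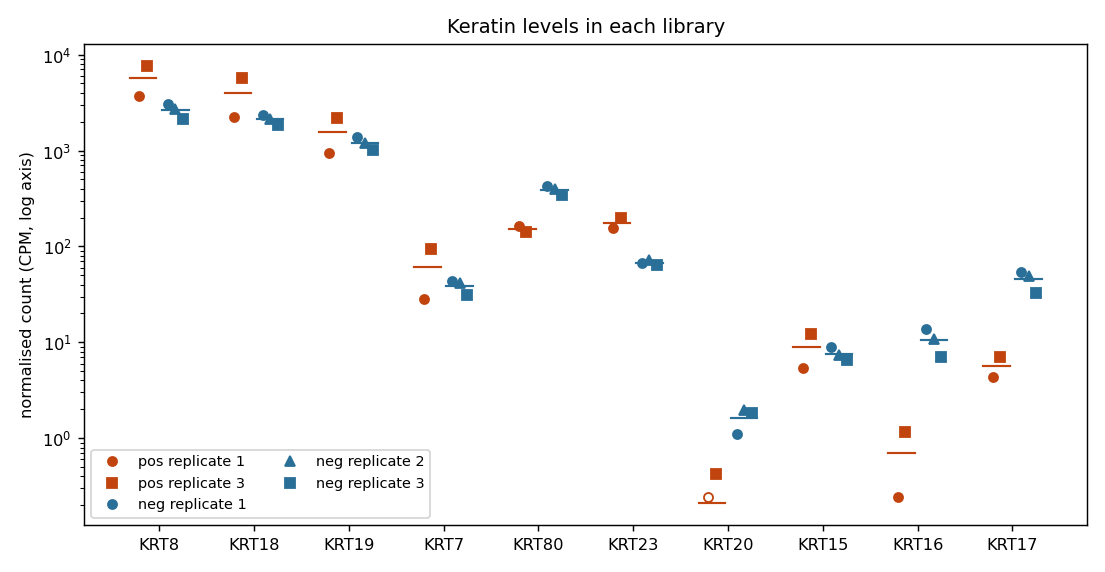
Normalised count of each keratin (CPM, log axis) in every library, with pos (orange) left of neg (blue) and a line at each group's mean, zeros included; the open symbol marks KRT20 in pos replicate 1, which had 0 reads and is drawn at the level of 3 counts. KRT16, KRT17 and KRT80 lie lower in both pos libraries than in any neg library and KRT23 lies higher, while the 2 pos libraries lie on either side of neg for KRT19, KRT7 and KRT15, and inside and above the neg range for KRT18.

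KRT16 and KRT17, the stress keratins, share an expression setting and much of their sequence. They are nearly identical at the start of the rod domain and differ widely at the end of the coding sequence. The stretches below show both, since they set how well reads can be assigned (GENCODE 44, GRCh38, minus strand of chromosome 17, 5′ to 3′), with KRT14, their close relative in basal keratinocytes, beside them. Capitals mark the positions at which the 3 genes are not all the same. The first set is the 90 coding bases in which KRT16 and KRT17 are most alike. They lie in exon 1, at chr17:41612242-41612331 for KRT16, chr17:41624162-41624251 for KRT17 and chr17:41586394-41586483 for KRT14.
KRT16: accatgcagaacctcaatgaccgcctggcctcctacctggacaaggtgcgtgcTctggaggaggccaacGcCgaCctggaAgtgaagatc
KRT17: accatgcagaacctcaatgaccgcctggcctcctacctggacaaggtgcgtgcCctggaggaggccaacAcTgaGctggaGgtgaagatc
KRT14: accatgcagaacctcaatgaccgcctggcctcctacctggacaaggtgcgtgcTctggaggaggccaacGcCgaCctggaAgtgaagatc
KRT17 had 85 of the 90 bases of KRT16, and KRT14 had all 90.

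The second set is the last 60 coding bases, stop codon included, which encode the end of the tail in exon 8. They lie at chr17:41609935-41609994 for KRT16, chr17:41619594-41619653 for KRT17 and chr17:41582435-41582494 for KRT14.
KRT16: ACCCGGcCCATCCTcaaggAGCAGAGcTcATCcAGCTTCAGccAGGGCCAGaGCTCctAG
KRT17: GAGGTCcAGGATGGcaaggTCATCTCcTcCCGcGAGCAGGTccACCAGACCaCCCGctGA
KRT14: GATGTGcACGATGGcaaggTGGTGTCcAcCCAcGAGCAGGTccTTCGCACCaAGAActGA
Here 17 of the 60 bases of KRT17 and 20 of those of KRT14 equalled KRT16 at the same place. Over the whole canonical transcript, 21.8% of the 50-base windows of KRT16 and 17.4% of those of KRT17 also occurred in the sense strand of a transcript of another gene. The same share was 39.2% for KRT8 and 35.3% for KRT18, mostly in their processed pseudogenes, and between 0 and 1.79% for the other 6 keratins. How the authors' counting treated such reads is not given in the sources used here, so the levels of these 4 genes carry that uncertainty.

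KRT16, a type I keratin of wound edges and hyperproliferative epidermis, had 3 and 11 reads in pos replicates 1 and 3, against 198, 172 and 88 reads in neg replicates 1, 2 and 3. Both pos libraries were far below every neg library. Its level was 0.701 ± 0.648 CPM in pos (SD, n = 2) and 10.6 ± 3.39 CPM in neg (SD, n = 3), a log2 fold change of -3.98 (SE 0.65, edgeR adjusted p = 0.0369). KRT16 entered the test through neg, where it is high. Its p-value is therefore not counted as support for a fall, here or with the length trend removed. Pooled over libraries, pos stood at 5.97% of neg (exact 95% interval 3.24% to 10.1%, counting error only), and pos replicate 1 alone at 2.26% (0.464% to 6.65%). The fitted log2 fold change was -3.14 with pos replicate 3 alone and -5.42 with pos replicate 1 alone. In these bulk libraries fewer cells with a transcript and less of it per cell cannot be told apart.

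KRT17, a type I keratin induced by injury and common in carcinomas, had 54 and 67 reads in pos replicates 1 and 3, against 782, 778 and 408 in neg replicates 1, 2 and 3. The groups lay far apart, with pos at 4.37 and 7.06 CPM and neg at 32.8 to 54.7 CPM. It averaged 5.72 ± 1.91 CPM in pos and 45.5 ± 11.3 CPM in neg (SD, n = 2 and 3), a log2 fold change of -3.00 (SE 0.37, edgeR adjusted p = 0.0302), or 7.99-fold lower. The length trend ran the other way for these 2 short transcripts (1658 and 1517 nt). At the length of KRT16 it stood at 0.22 in pos replicate 1 and 0.78 in pos replicate 3 on the log2 scale, and at that of KRT17 at 0.26 and 0.89. Once it was removed the log2 fold change was -4.51 (SE 0.50) for KRT16 and -3.59 (SE 0.24) for KRT17 (edgeR adjusted p = 0.00950 and 0.00377).

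Keratins of basal and wounded stratified epithelium other than these were scarce. KRT5, the type II keratin of basal keratinocytes, had 0 reads in both pos libraries and 10, 6 and 4 in neg. KRT14 had 0 and 0 reads in pos and 6, 2 and 3 in neg, and KRT6A, a type II partner of KRT16 in wounded epidermis, 0 and 2 in pos and 7, 6 and 11 in neg. These 3 genes, named after their values were seen, had too few reads to be tested. In the list of 15 squamous markers, to which KRT5 and KRT14 belong, 14 had a row and 1 was tested, KRT10. That gene stood at 0.65 (SE 0.39, edgeR adjusted p = 0.266).

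KRT80, a type II keratin of epithelia that also accompanies later differentiation, ranked after KRT8 among the 3 type II keratins in neg. It had 2032 and 1357 reads in pos replicates 1 and 3, against 6078, 6305 and 4327 in neg replicates 1, 2 and 3. All neg libraries were above both pos libraries, which were close to each other in CPM, at 164 and 143. Per transcript length (TPM) the pos libraries stood further apart, at 75.8 and 33.6, against 229 to 246 in neg. The level of KRT80 was 154 ± 15.1 CPM in pos and 390 ± 39.0 CPM in neg (SD, n = 2 and 3), a log2 fold change of -1.34 (SE 0.20, edgeR adjusted p = 0.0339). Its transcript is the longest of the 10 at 3873 nt, and the length trend there was -0.07 in pos replicate 1 and -0.41 in pos replicate 3. With the trend removed KRT80 stood at -1.11 (SE 0.15, edgeR adjusted p = 0.0142).

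KRT23, a type I keratin reported in colon carcinoma, was the 1 keratin of the 10 that rose. It had 1906 and 1878 reads in pos replicates 1 and 3, against 972, 1144 and 793 in neg replicates 1, 2 and 3. Both pos libraries were above every neg library. It averaged 176 ± 30.9 CPM in pos and 67.9 ± 4.09 CPM in neg (SD, n = 2 and 3), 2.59-fold higher (log2 fold change 1.38, SE 0.20, edgeR adjusted p = 0.0326). Per transcript length (TPM) the gap was narrower, at 124.6 and 81.6 in pos replicates 1 and 3. The neg replicates 1, 2 and 3 stood at 68.1, 78.2 and 73.7 TPM, so pos replicate 3 lay only just above neg replicate 2. KRT23 also passed with the length trend removed, at a smaller log2 fold change (SE 0.13, edgeR adjusted p = 0.0112). Scaled by library size alone, where all genes had a median of -0.41, KRT23 stood at 0.96 and did not pass (edgeR adjusted p = 0.0525).

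KRT20, the type I keratin of differentiated intestinal cells and a marker of colonic tumours, was barely present. It had 0 and 4 reads in pos replicates 1 and 3, against 16, 31 and 23 in neg replicates 1, 2 and 3. A limit of 3 reads for the count of 0 corresponds to 0.243 CPM in pos replicate 1. The neg libraries were all higher, at 1.12, 1.95 and 1.85 CPM. The log2 fold change was -3.05 (SE 0.94), and the edgeR adjusted p of 0.0841 did not pass, while DESeq2 gave an adjusted p of 0.0288 and edgeR without the length trend gave 0.0455. The fold rests on which library is used: it was -1.89 with pos replicate 3 alone, and -7.51 with pos replicate 1 alone, a value fitted to 0 reads that is no bound. Since KRT20 entered the test only through neg, where it is high, none of these p-values supports a fall. The pooled pos level was 11.2% of neg with an exact 95% interval of 2.96% to 29.9%.

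KRT8, the type II keratin of simple epithelium, had 45458 and 72437 reads in pos replicates 1 and 3, against 44026, 43225 and 26823 in neg replicates 1, 2 and 3. On the CPM scale that is 3678 and 7637 in pos, against 3078, 2717 and 2156 in neg. On that scale both pos libraries were above neg, and pos replicate 3 was well above pos replicate 1. Per transcript length (TPM) the groups overlapped, at 3680 and 3897 in pos against 3820, 3658 and 3086 in neg. The log2 fold change of 1.09 (SE 0.37) did not pass in edgeR (adjusted p = 0.0992) and passed in DESeq2 (adjusted p = 0.0215, where 23.2% of all genes passed). With the length trend removed it was 0.60 (SE 0.19, edgeR adjusted p = 0.0842). Pos replicate 3 alone gave 1.58 and pos replicate 1 alone 0.45.

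KRT18, the type I partner of KRT8, had 27889 and 53686 reads in pos replicates 1 and 3, against 33885, 33939 and 23038 in neg replicates 1, 2 and 3. Pos replicate 1, at 2257 CPM, lay inside the neg range of 1852 to 2369 CPM, and pos replicate 3, at 5660 CPM, lay far above it. The log2 fold change was 0.90 (SE 0.41, edgeR adjusted p = 0.172), or 0.17 (SE 0.20) without the length trend. Its level thus turned on 1 library: against neg, pos replicate 3 alone stood at 1.47 and pos replicate 1 alone at 0.07.

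KRT19, the tailless type I keratin of simple and ductal epithelium, had 11757 and 20845 reads in pos replicates 1 and 3, against 19978, 19014 and 12509 in neg replicates 1, 2 and 3. The 2 pos libraries lay on either side of neg, at 951 and 2198 CPM against 1005 to 1397 CPM. The log2 fold change was 0.39 (SE 0.39, edgeR adjusted p = 0.484), or -0.34 (SE 0.18) without the length trend. Pos replicate 3 alone gave 0.92 and pos replicate 1 alone -0.36.

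KRT7, a type II keratin of ductal epithelia that the colon mostly lacks, had 352 and 894 reads in pos replicates 1 and 3, against 626, 656 and 391 in neg replicates 1, 2 and 3. KRT15, a type I keratin of basal cells, had 67 and 117 reads in pos and 129, 117 and 81 in neg. Both genes lay on either side of neg in the 2 pos libraries. The log2 fold changes were 0.66 (SE 0.49) for KRT7 and 0.21 (SE 0.39) for KRT15, with edgeR adjusted p of 0.359 and 0.719, and 0.02 and -0.33 without the length trend. Pos replicate 3 alone stood at 1.33 and 0.74, and pos replicate 1 alone at -0.47 and -0.52.

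**Figure D2:**
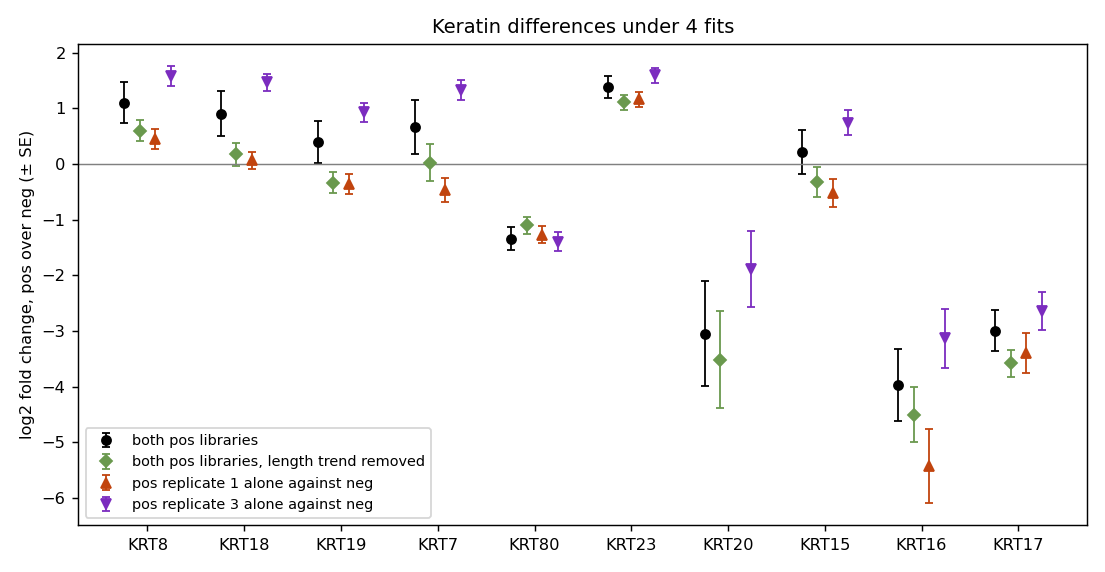
Log2 fold change of pos over neg with its standard error for each keratin, from edgeR on all 5 libraries (black), the same with the length trend removed (green), and with either pos library alone set against the 3 neg libraries (orange for replicate 1, purple for replicate 3). No point is drawn for KRT20 in pos replicate 1, which had 0 reads. KRT16, KRT17, KRT80 and KRT23 keep their side of 0 in every fit shown. So do KRT8, KRT18 and, where drawn, KRT20, while KRT7, KRT15 and KRT19 change sides.

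Levels of different keratins were compared per transcript length (TPM). In pos KRT8 led with 3788 ± 153 TPM, followed by KRT18 with 3248 ± 563 and KRT19 with 1330 ± 154 TPM (SD, n = 2), and the ranges of KRT8 and KRT18 did not overlap. In neg KRT18 with 3562 ± 191 and KRT8 with 3521 ± 385 TPM did not differ beyond their spread, and KRT19 followed with 2046 ± 189 TPM (SD, n = 3). By TPM KRT8 ranked 44 and 49 among all genes in pos, and 38, 37 and 46 in neg. KRT8, KRT18 and KRT19 together took 95.1% and 97.1% of the reads of the 10 keratins in pos, and 91.1% to 91.8% in neg.

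Below them the order differed between the groups. In pos KRT23 (103 ± 30.4 TPM), KRT80 (54.7 ± 29.8) and KRT7 (42.0 ± 15.2) followed, with ranges of KRT80 and KRT7 that overlapped. In neg KRT80 came next with 239 ± 8.80 TPM, and KRT23 (73.3 ± 5.05), KRT17 (70.8 ± 13.6) and KRT7 (56.7 ± 6.33) followed. The range of KRT17 overlapped those of KRT23 and KRT7, which did not overlap each other. KRT17 stood at 4.69 ± 0.638 TPM in pos, under KRT15 with 6.11 ± 0.641. KRT16 and KRT20 came last in pos, with 0.449 ± 0.265 and 0.106 ± 0.150 TPM. In neg KRT16 had 15.0 ± 3.84 TPM and KRT15 10.6 ± 0.999, in overlapping ranges, and KRT20 was last with 2.19 ± 0.712 TPM. TPM and CPM are scaled differently, and the means of KRT18, KRT19, KRT7 and KRT15 were lower in pos than in neg in TPM and higher in CPM.

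The balance of the simple keratins was read within each library, where scaling cancels. The ratio of KRT8 to KRT18 in TPM was 1.29 and 1.07 in pos replicates 1 and 3, against 1.03, 1.01 and 0.922 in neg replicates 1, 2 and 3. The ratio of KRT19 to KRT18 was 0.429 and 0.395 in pos, against 0.599, 0.570 and 0.552 in neg. Neither ratio overlapped between the groups, and KRT19 stood lower beside KRT18 in both pos libraries. With 10 ways to split 5 libraries the exact two-sided permutation test cannot go below 0.2. Both ratios gave that value (p = 0.2, exact), as any ratio without overlap would, so the test adds nothing here. CPM ranges did not overlap for 56.0% of all genes tested, and no such share was taken for ratios. KRT18 and KRT19 have transcripts of nearly the same length, 1413 and 1390 nt, at which the length trend of pos replicate 3 was 0.97 and 0.98 on the log2 scale, against 0.69 at the 1784 nt of KRT8. KRT80 amounted to 2.06% and 0.863% of KRT8 in pos, against 6.36%, 6.72% and 7.43% in neg. The length trend of pos replicate 3 was -0.41 for KRT80 and 0.69 for KRT8, and its part in this share was not tested.

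**Figure D3:**
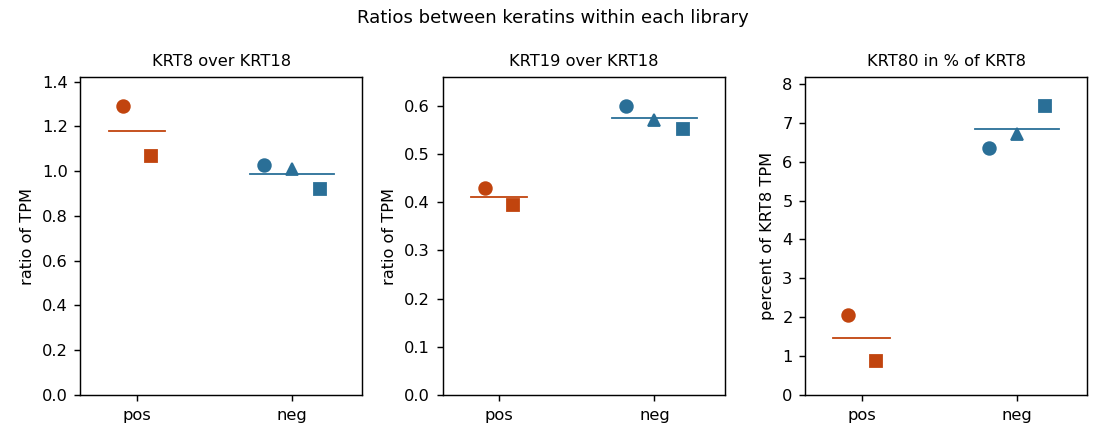
Ratio of KRT8 to KRT18 and of KRT19 to KRT18, and KRT80 in percent of KRT8, each from TPM within a library, for pos (orange) and neg (blue), with symbols for single libraries and lines for group means. The KRT8 to KRT18 ratio of pos replicate 3, 1.07, lies close to the highest neg value of 1.03, and the other 2 panels show clear gaps between the groups.

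In humans the keratin genes sit in 2 clusters, type II genes and KRT18 on chromosome 12 and the other type I genes on chromosome 17. On chromosome 12 KRT80 (52168996 to 52192014, GRCh38, GENCODE 44) lies next to KRT7, and KRT8 (52897191 to 52905076) next to KRT18 (52949118 to 52952906). On chromosome 17 KRT20 (40875889 to 40885242) lies next to KRT23 (40922700 to 40937646). KRT15 and KRT19 are neighbours further on, and so are KRT16 (41609778 to 41612767) and KRT17 (41619442 to 41624575). KRT20, with 0 and 4 reads in pos and 16 to 31 in neg, thus sits beside KRT23, which rose.

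Of 46 other keratin genes with a row, 6 were tested and 21 had no read in any library. KRT40, a hair follicle type I keratin near KRT23, rose. It had 455 and 430 reads in pos, against 216, 247 and 154 in neg (log2 fold change 1.52, SE 0.22, edgeR adjusted p = 0.0326), and passed without the length trend too (adjusted p = 0.0158). It did not pass under scaling by library size (edgeR adjusted p = 0.0534). KRT39, which lies between KRT23 and KRT40, had 135 and 53 reads in pos and 54, 72 and 50 in neg (1.01, SE 0.34, edgeR adjusted p = 0.100). Further along, KRTAP3-2, a hair keratin-associated protein gene, had 82 and 69 reads in pos and 35, 32 and 29 in neg (1.62, SE 0.26, edgeR adjusted p = 0.0360), and did not pass with the length trend removed (0.56, edgeR adjusted p = 0.316). KRT39 and KRTAP3-2 were named after their values were seen.

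By mean CPM over all 5 libraries the most abundant other keratins were KRT81, KRT86 and KRT10, although in pos KRT40 (41.1 CPM) was above KRT81 (37.0 CPM) and KRT86 (25.7 CPM). KRT81, a type II hair keratin, had 247 and 512 reads in pos, against 1341, 1248 and 787 in neg. Its neighbour KRT86, another type II hair keratin, had 160 and 365 reads in pos, against 1050, 980 and 588 in neg. Both were lower in each pos library than in each neg library without passing (log2 fold changes -1.09, SE 0.45, and -1.25, SE 0.49; edgeR adjusted p = 0.146 and 0.133). Both passed once the length trend was taken out (-1.53 and -1.55, edgeR adjusted p = 0.0300 and 0.0448). Pos replicate 1 alone gave -1.999 and -2.26, and pos replicate 3 alone -0.49 and -0.61. They share 38.4% of the 50-base windows of KRT81 and overlap on opposite strands, and the strand setting of the counting is not given, so their reads may not be kept apart. Of 7 keratin pseudogene rows none was tested.

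**Figure D4:**
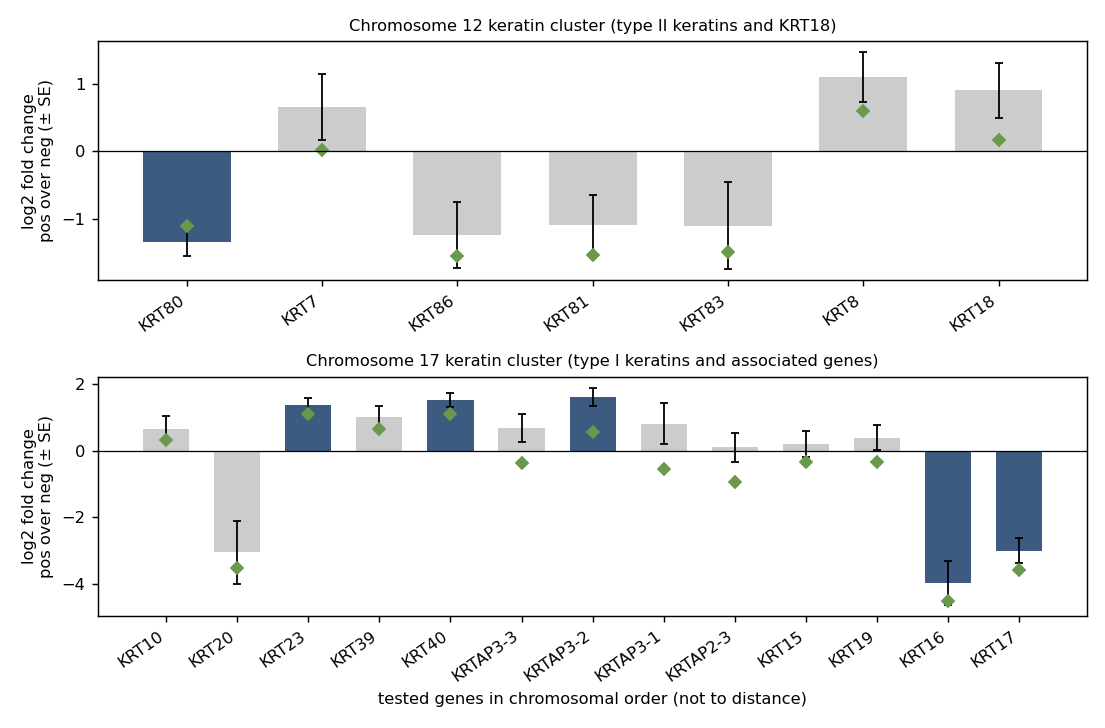
Log2 fold change of pos over neg with its standard error for the 20 tested keratin and keratin-associated genes in chromosomal order, with dark bars for genes past an adjusted p of 0.05, pale bars for the others and green diamonds for the fit with the length trend removed. KRT16 and KRT17 at the end of the chromosome 17 panel are both lower, and KRT23, KRT40 and KRTAP3-2 are higher, the last only with the length trend left in.

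Among 22 tested genes whose proteins anchor or bind keratin filaments, PLEC and EPPK1 fell and none rose, with a median log2 fold change of -0.64. PLEC encodes plectin, a large linker of intermediate filaments to junctions and other filaments. It had 5245 and 2369 reads in pos, against 13824, 19004 and 16532 in neg (log2 fold change -1.79, SE 0.32, edgeR adjusted p = 0.0386). Without the length trend it stood at -0.76 (edgeR adjusted p = 0.0389), and it did not pass under scaling by library size (adjusted p = 0.0539). EPPK1 encodes epiplakin, a keratin-binding plakin. It had 61 and 10 reads in pos, against 260, 404 and 379 in neg (-3.00, SE 0.63, edgeR adjusted p = 0.0448). Pos replicate 3 fell short of the filter's cut, so EPPK1 entered the test through neg, where it is high. Its p-values are not counted as support. Without the length trend EPPK1 stood at -2.15 (edgeR adjusted p = 0.0132), and it did not pass under scaling by library size (adjusted p = 0.0671). Pos replicate 3 alone gave -4.49 and pos replicate 1 alone -2.35. The share of 2 in 22 is near the 9.20% of all genes. With the length trend removed 2 rose and 3 fell, where 7.29% of all genes were called higher and 6.65% lower, and the median was -0.21.

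Of 9 tested intermediate filament genes outside the keratins 2 were called lower and none higher, against 4.13% and 5.06% of all genes. Both, PRPH and SYNM, entered the test through neg alone, where they are high, so the count supports nothing about the list. The median was -0.36, and 0.02 with the length trend removed, where VIM (vimentin) was also called lower, which made 3 (-0.67, edgeR adjusted p = 0.0435). PRPH encodes peripherin, a neuronal filament protein. It had 7 and 5 reads in pos, against 105, 88 and 71 in neg (-3.47, SE 0.36, edgeR adjusted p = 0.0263). SYNM encodes synemin, a filament protein that links to the cytoskeleton in muscle. It had 2 and 3 reads in pos, against 32, 33 and 42 in neg (-3.41, SE 0.56, edgeR adjusted p = 0.0369). Those pos libraries stood at 6.45% (exact 95% interval 0.771% to 23.9%) and 12.6% (2.56% to 37.8%) of the neg level of SYNM.

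**Figure D5:**
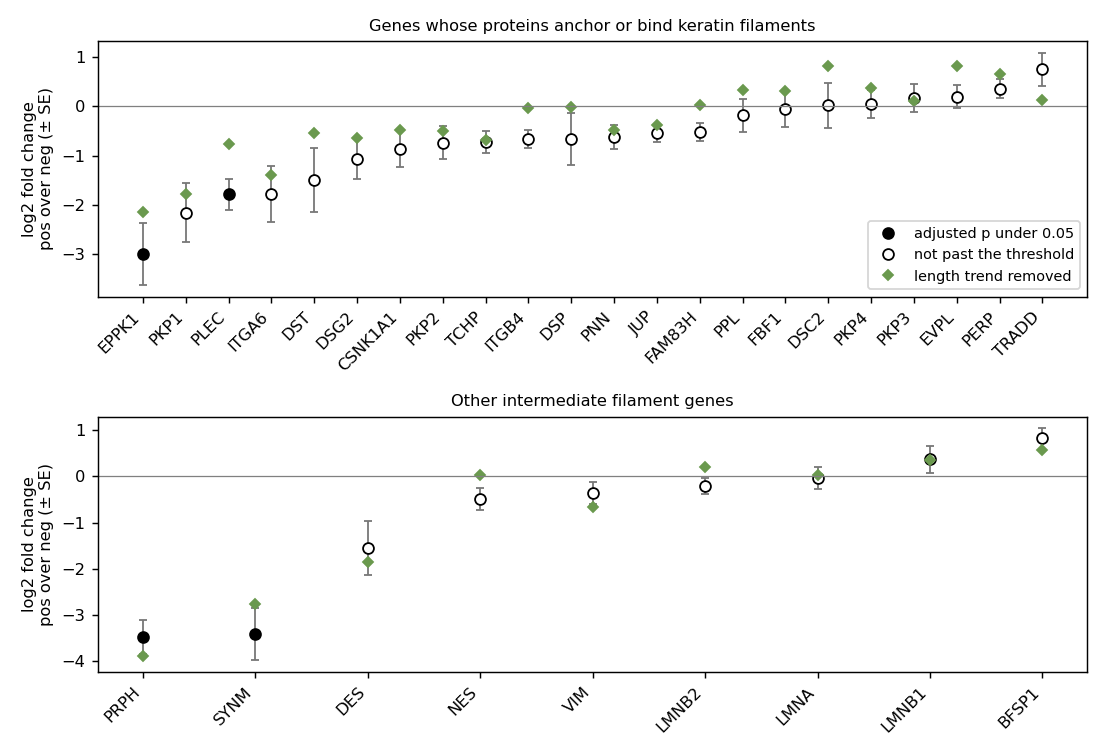
Log2 fold change of pos over neg with its standard error for the 22 tested keratin partner genes and the 9 tested other intermediate filament genes, ordered by value, with filled circles for genes past an adjusted p of 0.05, open circles for the others and green diamonds for the fit with the length trend removed. EPPK1 and PLEC in the upper panel and PRPH and SYNM in the lower panel are the filled points, all below 0.

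The genes closest to KRT8 in pattern were sought by the root mean square difference of log2 CPM, centred on each gene's mean, over the 5 libraries and 10869 genes with a mean of at least 5 CPM. EIF5A, a translation factor gene, was nearest at 0.00877, followed by ABHD11 at 0.0277 and PTOV1 at 0.0310. For KRT18 they were MVB12A at 0.0294, SENP3 at 0.0302 and PEX14 at 0.0320. KRT18 itself came 544th for KRT8 at 0.160, so the partner was one of many genes with as close a profile, and these distances over 5 libraries are a description only.

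Markers of other cells stayed low. The 12 fibroblast markers summed to 52.2 and 73.1 CPM in pos and 60.6 to 64.2 CPM in neg, and 10 leukocyte markers to 47.7 and 62.6 CPM in pos and 49.6 to 59.5 CPM in neg, with 4 genes of each list at 0 in every library. In the fibroblast list these were COL1A2, COL3A1, FAP and POSTN, and in the leukocyte list they included PTPRC, the common leukocyte antigen. Of the other markers COL1A1, a collagen gene, fell (-1.36, SE 0.21) and LYZ, the lysozyme gene also made by intestinal secretory cells, rose (1.27, SE 0.23; edgeR adjusted p = 0.0340 and 0.0386), and neither passed without the length trend. The 14 squamous marker rows summed to 29.5 and 68.6 CPM in pos and 25.6 to 38.0 CPM in neg. Nearly all of that was KRT10, with 29.5 and 67.7 CPM in pos and 24.0 to 36.0 CPM in neg. The part of all these markers in the results was not tested.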

How the data were processed

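Poly(A) RNA of 5 SW620 libraries was sequenced with a stranded kit. The authors deposited a table of raw counts per gene symbol. Reads were aligned with STAR, per the labels' protocols, and CASAVA 1.8.2, STAR 2.5.2b and DESeq2 1.24.0 appear in the submitters' processing notes. Those notes give hg19 and the labels' protocols GRCh38, so positions, transcript lengths and sequences come from GENCODE 44 (GRCh38), matched by symbol. No source used here states the counting program, its strand setting or the read length. Of 25435 rows, 92 spike-in rows, at 0 throughout, were left out. Titles gave groups and replicate numbers.

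Tests used edgeR 4.0.16 in R 4.3.3, with limma 3.58.1 and DESeq2 1.42.0 as alternatives. Genes kept by filterByExpr (minimum count 10, minimum total 15) were TMM-scaled and fitted by quasi-likelihood (glmQLFit, glmQLFTest), pos against neg, two-sided. SE is the log2 fold change over the square root of F. CPM is TMM-scaled. TPM used canonical transcript lengths, known for 97.7% of tested genes. The length trend was a lowess (span 0.3) of log2 CPM (prior count 2) on log2 length in each library, removed as an offset. Exact 95% intervals cover counting error only, since reads carry no molecular identifiers. A count of 3 equals 0.189 to 0.316 CPM.

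Named were MUC1, the 10 keratins, genes past the threshold in the keratin, filament and partner lists, the 3 most abundant other keratins, and the 3 genes nearest in pattern to KRT8 and to KRT18. Marker genes were named where they passed or define a cell type. The members and lists were chosen with earlier results of these data known. Alternatives were DESeq2, limma-voom, other scalings and filters, the replicate number as a block, removal of the length trend, each library left out and a stricter threshold. In simulated data for pos against neg with 13604 genes, edgeR called 59 of 100 genes with a 4-fold change and 1 of 100 with a 2-fold change.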

Additional observations from a re-analysis of the deposited data

How the results depend on the processing

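KRT16, KRT17 and KRT80 were called lower, and KRT23 higher, under limma-voom, DESeq2, DESeq2 size factors, both other filters and removal of the length trend. DESeq2 called 3161 genes (1799 higher, 1362 lower), with 2 keratins higher and 4 lower. Scaling by library size only called 606 genes (148 higher), with 0 keratins higher and 3 lower. With the length trend removed 1896 genes passed (904 lower). At an adjusted p of 0.01, 1 gene passed in edgeR (0 higher, 1 lower), and 0 keratins in either direction, although 4710 genes had an unadjusted p under 0.05. Leaving out 1 library gave 0 to 8819 calls (0 to 4324 higher, 0 to 4495 lower), with 0 to 6 keratins higher and 0 to 4 lower. The 0 calls came without any 1 neg library, and the largest counts from fits with 1 pos library, whose spread was taken from neg. Without the length trend and without pos replicate 1, 7215 genes passed (3862 higher, 3353 lower; 4 keratins higher), and without pos replicate 3, 4988 passed (2356 higher, 2632 lower; 7 keratins lower). The causes were not tested.

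Same-numbered pos and neg libraries deviated in opposite directions (r = -0.44 for replicate 1 and -0.45 for replicate 3), and the labels tie nothing to the number. The deviations of the 2 pos libraries from their mean mirror each other, so these 2 values are not separate checks. With the replicate block 87 genes passed (8 higher, 79 lower), with 0 keratins higher and 2 lower, KRT16 and KRT17.

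Signs changed for genes that had not passed. With library size only KRT15 stood at -0.26 and KRT19 at -0.090. With the length trend removed they stood at -0.33 and -0.34. Without pos replicate 3 the values were -0.47 for KRT7, -0.52 for KRT15, -0.36 for KRT19 and -0.089 for KRT10, and without pos replicate 1 they were 1.33, 0.74, 0.92 and 1.18. Without pos replicate 3 and the trend they were -0.67 for KRT7, -0.70 for KRT15, -0.20 for KRT18, -0.63 for KRT19 and -0.18 for KRT10. Without pos replicate 1 and the trend they were -0.024 for KRT15, -0.081 for KRT19, -0.25 for KRT39 and -0.20 for EPCAM. Depth limits KRT16, KRT20, PRPH and SYNM, which had 0 to 11 reads in each pos library.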
